A study of Nicotiana tabacum and Solanum tuberosum subsp. andigenum and Nicotiana sylvestris with 28 samples.

Results

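GBSS, R1, AMYA1 and STP-1, 4 genes of starch metabolism, were followed in leaves of potato and tobacco plants whose day length had been changed. They were taken by their symbols in the annotation of the potato cDNA array, which gave 7 cDNA clones (14 spots, 2 per clone) of the 10684 clones with a measured value. GBSS, R1 and AMYA1 had 2 clones each and STP-1 had 1. Each clone is called here by the number of its first spot.

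Leaves make starch in the chloroplast during the light period and break it down again at night to supply sucrose to the rest of the plant. GBSS, granule-bound starch synthase, makes the amylose of the starch granule. R1, the glucan water dikinase first found in potato, phosphorylates the granule surface and so opens it to the enzymes of breakdown. AMYA1 is an alpha-amylase, which cuts glucan chains from within, and STP-1 is a starch phosphorylase, which releases glucose 1-phosphate from chain ends. The amount of leaf starch, and the time at which it is used up, depend on day length in many species.

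The plants were Solanum tuberosum subsp. andigena, which forms tubers in short days (SD) only, Nicotiana tabacum MM, which flowers in SD only, N. tabacum Hicks, which flowers at the same time in any day length, and N. sylvestris, which flowers in long days (LD) only. MM is isogenic with Hicks and carries the Maryland Mammoth allele. Potato, MM and Hicks plants grown in LD were moved to SD for 15 days or 1 day and set against plants kept in LD for all 56 days, whereas N. sylvestris plants grown in SD were moved to LD and set against plants kept in SD. The α-PHYB potato plants, antisense plants with less phytochrome B that tuberize in any day length, were set against wild type (WT), both in LD. There were 3 biological replicates for each of the 9 comparisons, all from leaves (leaves and petioles in the methods for potato), and the channel labels give each control its own extract number, although the sample titles repeat the name of the control.

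Each array held the RNA of 2 plant groups in 2 colours, and every value below is a log2 ratio of LD over SD, or of WT over α-PHYB. A positive ratio therefore means a lower level in SD leaves or in α-PHYB leaves, and in N. sylvestris it means a higher level in the LD leaves. The deposit does not state which channel is on top, so this direction is likely rather than given. It rests on the dyes in the labels and on the signs of 3 genes outside starch metabolism. The array with exchanged dyes did not follow the dye rule. LD had 16 h of light at 80 μmol and SD 8 h at 160 μmol, and leaves were taken 14 h after dawn by the methods (16 h by the labels), when the lamps were on in LD and off in SD. Day length, irradiance and light at harvest therefore cannot be told apart, nor can fewer cells of a type and less RNA per cell. A ratio holds no level, so the leaf identity of the samples could not be checked by marker genes.

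Potato arrays held values for 8922 to 9887 clones, MM arrays for 5169 to 7333, Hicks arrays for 5250 to 7157 and N. sylvestris arrays for 3602 to 4873. Over all clones, paired spots had a median r of 0.890, and the 2 spots of a starch clone differed by a median of 0.11 on the log2 scale. Both R1 clones had a value on all 28 arrays, GBSS clone 134645 on 27, STP-1 on 23, AMYA1 clone 153337 on 20, GBSS clone 135253 on 14 and AMYA1 clone 139548 on 5. Both clones of GBSS had the same sign in 13 of the 13 replicates that measured both, although they differed by up to 2.27 log2 units. For R1 the signs were the same in 22 of 27 replicates and the largest difference was 0.69. Replicates that stood apart over all clones were replicate 3 of α-PHYB (r of 0.323 and 0.454 with the others, against 0.773 between those), replicate 2 of MM on both days (r between -0.095 and 0.287), replicates 2 and 3 of Hicks after 15 days against each other (r of 0.096, while replicate 1 had 0.408 and 0.472 with them) and replicate 1 of N. sylvestris after 1 day (r of -0.307 and -0.200).

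**Figure D1:**
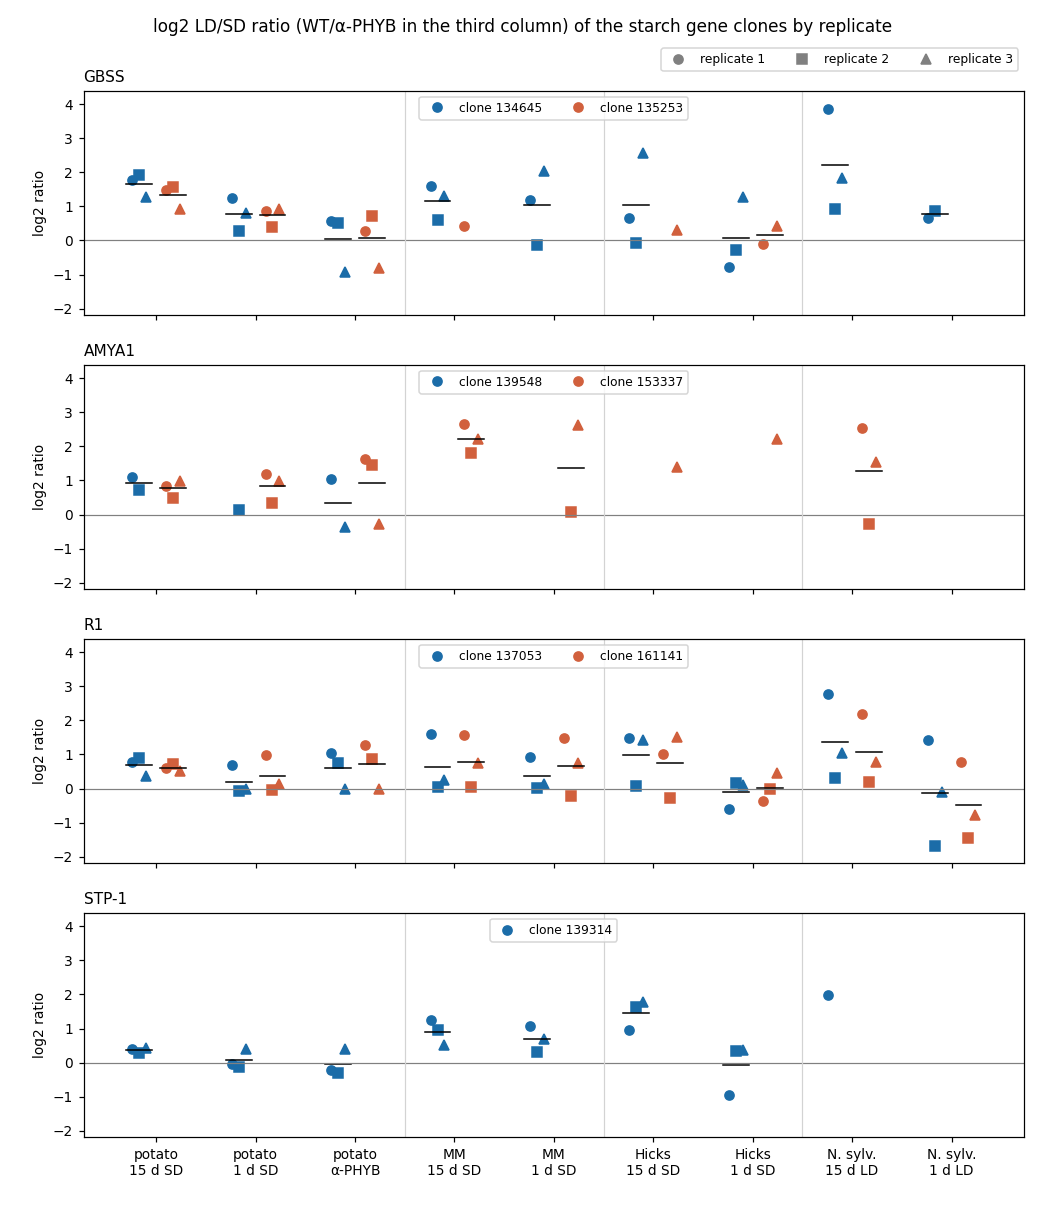
Log2 ratio of each starch gene clone (vertical axis, LD/SD, or WT/α-PHYB in the column marked α-PHYB) in every replicate of the 9 comparisons (horizontal axis), with colours for the clones, symbols for the replicates and black bars for means of at least 2 replicates. All potato and MM values after 15 days of SD lie above 0, while every other column holds values on both sides of 0.

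After 15 days of SD, starch gene transcripts in potato leaves were lower in SD than in LD in all 6 clones that could be tested. GBSS fell most, to about 3 times less RNA in SD than in LD by clone 134645. R1, AMYA1 and STP-1 fell by less than 2-fold. A clone passed the test where limma gave it p of at most 0.05 and, adjusted by Benjamini-Hochberg over the 8426 clones measured in all 6 replicates of the 2 days, at most 0.1. These 6 clones of 6 stand beside 20.6% of all tested clones that passed with a positive ratio, and their median ratio was 0.73, against 0.01 over all tested clones.

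GBSS clone 134645 had log2 LD/SD ratios of 1.78, 1.93 and 1.27 in replicates 1, 2 and 3 after 15 days. Its values ranked between the 97.1 and the 99.1 percentile of all clones on those arrays. The mean was 1.66 ± 0.35 (SD, n = 3), a 3.16-fold difference, with an adjusted p of 0.000523 from limma. GBSS clone 135253, from another cDNA, had 1.48, 1.56 and 0.93, a mean of 1.32 ± 0.34 and a 2.50-fold difference (adjusted p of 0.000596 from limma). Only these 2 starch clones passed at 2-fold or more, as did 3.45% of all tested clones with a positive ratio.

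R1 clone 137053 had ratios of 0.78, 0.89 and 0.37 after 15 days of SD, and R1 clone 161141 had 0.59, 0.73 and 0.51. All 6 values were positive and the means, 0.68 ± 0.27 and 0.61 ± 0.11, were close to each other. Both passed the test, with adjusted p of 0.0159 and 0.0331 from limma, and correspond to 1.60-fold and 1.53-fold lower transcript in SD. AMYA1 clone 153337 had 0.85, 0.49 and 0.99, with a mean of 0.78 ± 0.26 (adjusted p of 0.0091). Its second clone, 139548, was measured in 2 of the 3 replicates, at 1.11 and 0.72, and was not tested. The value of 1.11, in replicate 1, came from the array with exchanged dyes alone. STP-1 had the smallest ratios, 0.40, 0.28 and 0.43, with a mean of 0.37 ± 0.08 (adjusted p of 0.0541).

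Without replicate 2 of 15 days, R1 clones 137053 and 161141 and the STP-1 clone missed the threshold (adjusted p of 0.102, 0.149 and 0.117 in limma). Without replicate 1 the STP-1 clone and R1 clone 161141 missed it (adjusted p of 0.172 and 0.105 in limma), and without replicate 3 the STP-1 clone did. The shares of all clones that passed in these fits were not counted, so the losses cannot be read as particular to the starch genes. By the methods' t-test with Benjamini-Hochberg adjustment, 0 of the 6 passed on the 3 replicates of 15 days alone. The methods pool the 2 days, and on the 6 pooled replicates that test passed 5 of the 6 clones, all but STP-1. Its share over all clones was not counted. On the same replicates limma passed 6, beside 27.7% of all tested clones with a positive ratio. The pooled ratios were 1.22 and 1.03 for GBSS, 0.81 for AMYA1, 0.44 and 0.49 for R1 and 0.22 for STP-1.

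After 1 day of SD, GBSS and AMYA1 were already lower in SD than in LD, whereas neither R1 nor STP-1 passed. The count was 3 of 6 clones, beside 19.1% of all tested clones with a positive ratio, and none of the 3 reached 2-fold. On the 3 replicates of 1 day alone, the methods' t-test with Benjamini-Hochberg adjustment passed 0 of them.

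GBSS clone 134645 had 1.25, 0.28 and 0.82 after 1 day (mean 0.78 ± 0.48, adjusted p of 0.0153 from limma), and clone 135253 had 0.87, 0.41 and 0.93 (mean 0.74 ± 0.29, adjusted p of 0.0083). Replicate 2 was the lowest for both clones. AMYA1 clone 153337 had 1.19, 0.34 and 0.97, a mean of 0.83 ± 0.44 with an adjusted p of 0.0070 from limma. Of AMYA1 clone 139548, replicate 2 alone had a value, 0.14.

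The R1 clones were high in replicate 1 only: clone 137053 had 0.70, -0.07 and -0.03, and clone 161141 had 1.00, -0.04 and 0.14. Their means of 0.20 and 0.36 had adjusted p of 0.407 and 0.167 (limma). STP-1 had -0.03, -0.14 and 0.40, with a mean of 0.08 (95% interval -0.21 to 0.36).

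The question of whether the starch genes responded more after 15 days than after 1 day was put as the difference of the mean ratios, 15 days minus 1 day. None of the 6 clones passed this test, as only 0.142% of all clones did in the positive direction, and 2 had an unadjusted p under 0.05 in limma, both of GBSS. GBSS clone 134645 differed by 0.88 (95% interval 0.27 to 1.48, unadjusted p of 0.0099, adjusted p of 0.927 in limma). All its 15 day values, 1.78, 1.93 and 1.27, were above the 1 day values of 1.25, 0.28 and 0.82. GBSS clone 135253 differed by 0.59 (0.09 to 1.08), and its groups overlapped, since the lowest 15 day value was 0.93 and the highest 1 day value also 0.93.

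For AMYA1 the difference of the days was -0.06 (95% interval -0.60 to 0.48). For R1 it was 0.48 (-0.06 to 1.02) and 0.25 (-0.34 to 0.83), and for STP-1 0.29 (-0.11 to 0.69). In these intervals differences of either direction remain for all 3 genes. With the replicate number as a block, the interval of R1 clone 137053 was 0.04 to 0.92 (unadjusted p of 0.0363, adjusted p of 0.699 in limma), and its 15 day value was the higher by 0.08, 0.96 and 0.40 in replicates 1, 2 and 3. STP-1 was higher after 15 days by 0.43, 0.42 and 0.03, with a blocked interval of -0.05 to 0.63. None of the 6 clones passed with the block, as only 0.166% of all clones did in the positive direction.

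**Figure D2:**
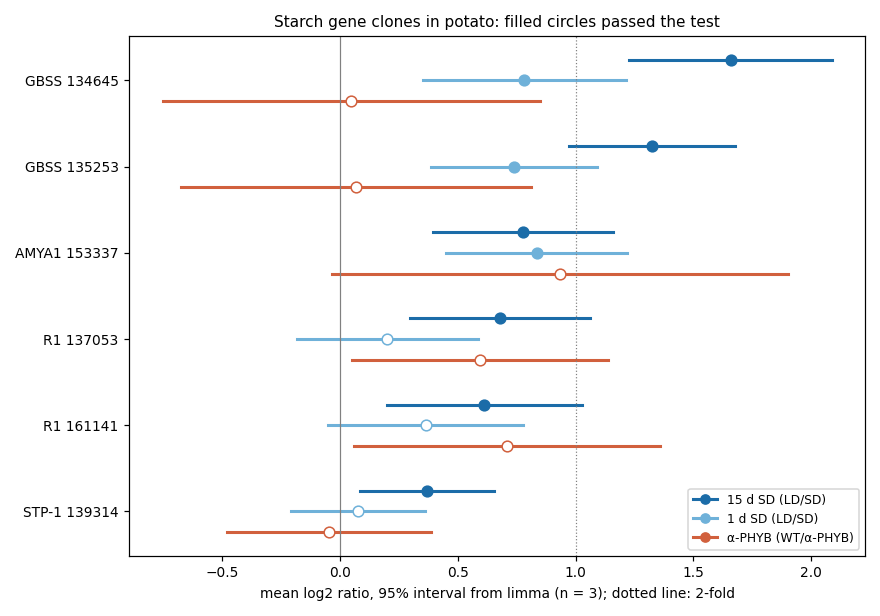
Mean log2 ratio (horizontal axis) with its 95% interval from limma for the 6 tested starch clones in potato (vertical axis), after 15 days of SD, after 1 day of SD and in α-PHYB plants (n = 3 each); filled circles passed the test. The GBSS clones lie at 1.66 and 1.32 after 15 days of SD and at 0.05 and 0.07 in α-PHYB plants, whereas the 3 estimates for AMYA1 lie between 0.78 and 0.93.

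In α-PHYB plants, compared with WT plants in the same LD, none of the 6 tested clones passed the test. This count of 0 stands beside 8.19% of the 8463 tested clones that passed with a positive WT/α-PHYB ratio. At an unadjusted p under 0.05 there were 2, both of R1, and with the methods' t-test and Benjamini-Hochberg adjustment there were 0.

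The replicates of α-PHYB plants did not go the same way. GBSS clone 134645 had WT/α-PHYB ratios of 0.58, 0.50 and -0.93 in replicates 1, 2 and 3, and clone 135253 had 0.29, 0.71 and -0.80. AMYA1 clone 153337 had 1.62, 1.45 and -0.27, and clone 139548 had 1.04 in replicate 1 and -0.36 in replicate 3. For STP-1 the signs were the opposite, -0.23, -0.30 and 0.40. R1 clone 137053 had 1.04, 0.74 and 0.00, and clone 161141 had 1.28, 0.86 and -0.02, so that replicate 3 was near 0 for this gene only.

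The mean for R1 was 0.59 ± 0.54 and 0.71 ± 0.67 (adjusted p of 0.158 for both clones in limma), and for AMYA1 0.93 ± 1.04 (adjusted p of 0.195). The GBSS means were 0.05 and 0.07, with 95% intervals of -0.75 to 0.85 and -0.68 to 0.81. Without replicate 3, which stood apart over all clones, 5 of the 6 clones passed, beside 18.8% of all tested clones with a positive ratio. Their ratios were then 0.54 and 0.50 for GBSS, 0.89 and 1.07 for R1 and 1.53 for AMYA1, while STP-1 had -0.27 (adjusted p of 0.159).

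The photoperiod ratio in potato was next set against the phytochrome B ratio, as the difference of the 2 means. After 15 days of SD both GBSS clones had a larger LD/SD ratio than WT/α-PHYB ratio, by 1.61 (95% interval 0.73 to 2.49, adjusted p of 0.0268 in limma) and 1.26 (0.48 to 2.03, adjusted p of 0.0425). Both passed, 2 of 6 starch clones, beside 9.75% of all clones tested in that direction. Leaving out replicate 1 or 2 of 15 days, 1 of the GBSS clones passed. Leaving out replicate 3 of α-PHYB, 4 clones passed, with GBSS differences of 1.12 and 0.82, STP-1 at 0.64 and AMYA1 at -0.76. The share of all clones that passed in these fits was not counted, so these counts have no background to be read against. Deviations from the group mean over all clones were correlated between same-numbered α-PHYB and 15 day replicates (r of 0.210, 0.391 and 0.557). With the number as a block shared by α-PHYB and both potato days, 3 clones passed, beside 16.4% of all clones. These were the GBSS clones and STP-1, with its difference of 0.41 (adjusted p of 0.0656 in limma).

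The other starch genes did not pass this comparison, with differences at 15 days of 0.09 and -0.10 for R1, -0.16 for AMYA1 and 0.41 for STP-1. The 95% intervals were -0.57 to 0.74 and -0.85 to 0.66 for the R1 clones and -1.14 to 0.82 for AMYA1, and so hold differences in either direction. After 1 day of SD none of the 6 differences passed, at an unadjusted p under 0.05 there were 0, and the GBSS differences were 0.73 and 0.67 (adjusted p of 0.294 and 0.274 in limma). Without replicate 3 of α-PHYB they were 0.25 and 0.24. Of all clones, 6.7% passed in the positive direction there.

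In tobacco MM, where SD induces flowering, the starch genes had positive LD/SD ratios in most replicates, as in potato. Day by day, however, 0 of the 4 tested clones passed in limma with the 2 days sharing a spread, beside 2.23% of 4355 clones with a positive ratio after 15 days and 0.987% after 1 day. At an unadjusted p under 0.05 there were 2 on each day, GBSS and STP-1, and with the methods' t-test and Benjamini-Hochberg adjustment there were 0. With both days pooled, 3 of 4 passed, beside 13.5% of all clones: GBSS, STP-1 and R1 clone 161141. The methods' t-test on the pooled days passed GBSS and STP-1, and its share over all clones was not counted.

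GBSS clone 134645 had ratios of 1.61, 0.60 and 1.29 in MM after 15 days of SD, and 1.20, -0.13 and 2.04 after 1 day. Replicate 2 was the lowest on both days. The means were 1.17 ± 0.52 after 15 days (adjusted p of 0.177 in limma) and 1.04 ± 1.09 after 1 day (adjusted p of 0.299). The second GBSS clone was measured on 1 MM array, with 0.43.

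R1 was also low in replicate 2. R1 clone 161141 had 1.56, 0.06 and 0.74 after 15 days of SD and 1.49, -0.23 and 0.74 after 1 day, and R1 clone 137053 had 1.60, 0.03 and 0.25 after 15 days and 0.93, 0.01 and 0.14 after 1 day. The means lay between 0.36 and 0.78, with adjusted p between 0.323 and 0.700 in limma.

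AMYA1, the alpha-amylase, had the highest ratios of the starch genes in MM. Its clone 153337 had 2.66, 1.80 and 2.22 after 15 days of SD, all above the 99 percentile of their arrays. The mean of 2.23 ± 0.43 corresponds to 4.68 times less transcript in SD than in LD. AMYA1 clone 139548 had no value in MM. The spots of clone 153337 differed widely, with 3.14 and 2.18 in replicate 1 and 2.88 and 1.56 in replicate 3, and replicate 2 had a value for only 1 spot. With only 2 values after 1 day, 0.08 in replicate 2 and 2.62 in replicate 3, the clone was outside the joint fit, and on the 15 day arrays alone it passed, with an adjusted p of 0.0069 from limma (2.32% of 4647 clones passed there with a positive ratio).

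STP-1 had 1.24, 0.96 and 0.52 after 15 days and 1.07, 0.30 and 0.68 after 1 day, positive in 6 of 6 replicates. The adjusted p was 0.101 after 15 days and 0.230 after 1 day, and 0.0105 with the days pooled (limma), for a pooled ratio of 0.80. The difference of the days was 0.22 (95% interval -0.50 to 0.95), and it passed for 0 of the 4 clones and 0 of all 4355, with 0 of the 4 at an unadjusted p under 0.05.

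Same-numbered MM replicates of the 2 days moved together over all clones. With the replicate number as a block, 4 of 4 starch clones passed after 15 days (15.6% of all clones with a positive ratio) and 3 after 1 day (11%), a fit in which the error of a mean leaves out the spread between the numbers. The adjusted p in that fit were 0.0084 for GBSS, 0.0268 and 0.0089 for R1 and 0.0083 for STP-1 after 15 days, and 0.0160 for GBSS, 0.0288 for STP-1 and 0.0196 for R1 clone 161141 after 1 day. Without the MM arrays numbered 2, which stood apart, GBSS, STP-1 and R1 clone 161141 passed on each day, with GBSS at 1.45 after 15 days and 1.62 after 1 day (9.62% and 12% of all clones passed with a positive ratio).

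**Figure D3:**
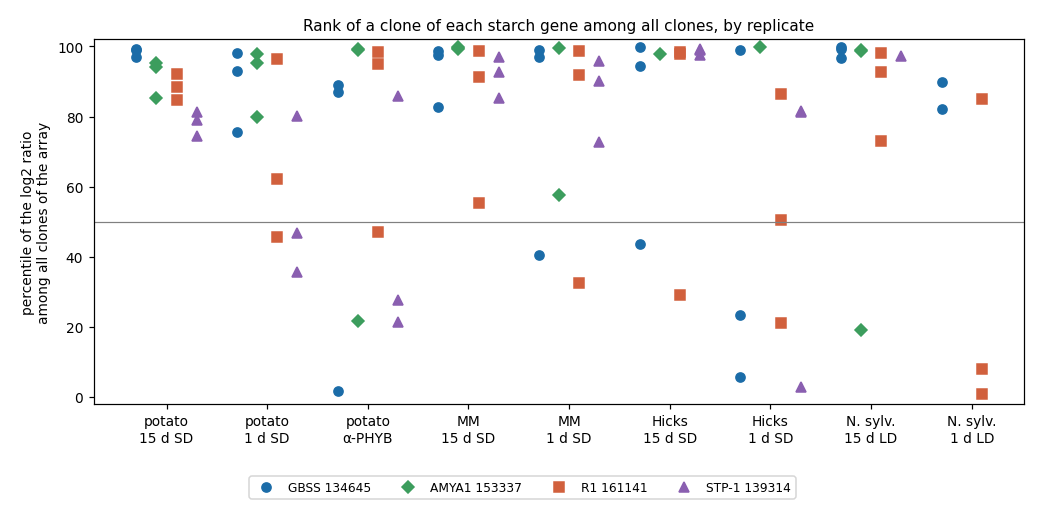
Percentile of the log2 ratio of 1 clone of each starch gene among all clones with a value on the same replicate (vertical axis), for the 9 comparisons (horizontal axis); each symbol is a replicate. GBSS ranked between 97.1 and 99.1 in potato after 15 days of SD but at 1.7 in replicate 3 of α-PHYB, and AMYA1 ranked above 99 in all 3 MM replicates after 15 days.

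In the day-neutral tobacco Hicks, STP-1 and R1 clone 137053 were lower after 15 days of SD than in LD, 2 of the 4 tested clones, beside 5.39% of 3914 clones that passed with a positive ratio. STP-1 passed at 2-fold or more, as did 1.25% of the clones. After 1 day, 0 of 4 passed, and 0 at an unadjusted p under 0.05 in limma, where 8.87% of all clones passed with a positive ratio.

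STP-1 had ratios of 0.96, 1.64 and 1.76 after 15 days of SD in Hicks, and -0.96, 0.34 and 0.36 after 1 day. The days did not overlap, and the 15 day values ranked at 97.6, 99.3 and 99.1 percent of their arrays. The 15 day mean of 1.45 ± 0.44, a 2.74-fold lower level in SD, had an adjusted p of 0.0266 in limma, while the 1 day mean was -0.09 ± 0.75. The difference of the days was 1.54 (95% interval 0.69 to 2.39), with an unadjusted p of 0.0026 and an adjusted p of 0.160, and none of the 3914 clones passed that test.

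R1 clone 137053 had 1.50, 0.06 and 1.43 after 15 days and -0.59, 0.16 and 0.10 after 1 day. Its 15 day mean was 1.00 ± 0.81 (adjusted p of 0.0856 in limma), and the groups overlapped through replicate 2. R1 clone 161141 had 1.01, -0.28 and 1.51 after 15 days and -0.38, -0.01 and 0.45 after 1 day, with means of 0.75 (adjusted p of 0.185) and 0.02. In the test of the days, R1 clone 137053 differed by 1.11 (0.23 to 1.99, unadjusted p of 0.0192, adjusted p of 0.205).

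GBSS varied most between Hicks replicates: clone 134645 had 0.66, -0.07 and 2.57 after 15 days of SD, and -0.79, -0.29 and 1.27 after 1 day. The means were 1.05 ± 1.36 (adjusted p of 0.239 in limma) and 0.07 ± 1.07. On the replicate 3 arrays, which gave the high values, the other GBSS clone had 0.30 after 15 days and 0.41 after 1 day. AMYA1 clone 153337 was measured on those replicate 3 arrays alone, with 1.38 after 15 days and 2.23 after 1 day.

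Both Hicks calls at 15 days rested on few arrays. From the 15 day arrays alone, or with the methods' t-test and Benjamini-Hochberg adjustment, 0 of the 4 passed. The shares over all clones in those 2 fits were not counted. Without replicate 1 of 15 days the STP-1 ratio of 1.70 had an adjusted p of 0.109 in limma. Among the fits with 1 replicate left out, R1 clone 137053 kept its call only without replicate 2 of 15 days. Of all its 16 alternatives, 8 kept the call and 8 lost it.

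In N. sylvestris, where the moved plants are those in LD, only the R1 clones were measured on all 6 arrays. R1 clone 137053 had LD/SD ratios of 2.79, 0.30 and 1.05 after 15 days of LD, and 1.41, -1.68 and -0.09 after 1 day. R1 clone 161141 had 2.19, 0.20 and 0.79 after 15 days and 0.77, -1.45 and -0.78 after 1 day. The 15 day value was the higher in each of the 3 replicates of both clones.

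Neither R1 clone passed in limma with the spread shared between days, on either day or for their difference, and 0 had an unadjusted p under 0.05. The 15 day means were 1.38 ± 1.27 and 1.06 ± 1.02 (adjusted p of 0.242 and 0.247), and the 1 day means were -0.12 ± 1.55 and -0.49 ± 1.14. Of the 2314 clones, 0.0864% passed with a positive ratio after 15 days and 0 after 1 day.

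Same-numbered replicates were strongly alike over all clones in N. sylvestris, and with the number as a block the difference of the days passed for both R1 clones. R1 clone 137053 was higher after 15 days of LD than after 1 day by 1.37, 1.98 and 1.14 in replicates 1, 2 and 3, a mean of 1.50 (95% interval 1.03 to 1.97, adjusted p of 0.0093 in limma). R1 clone 161141 was higher by 1.42, 1.66 and 1.57, a mean of 1.55 (1.15 to 1.94, adjusted p of 0.0093). These 2 of 2 clones stand beside 22.6% of all clones that passed in the same direction. In the same fit both R1 means passed after 15 days (30.7% of all clones with a positive ratio). R1 clone 161141 passed after 1 day with its ratio of -0.49 (adjusted p of 0.0285 in limma), beside 20.5% of clones with a negative ratio. For these means, unlike the difference of the days, the error in the blocked fit leaves out the spread between the numbers. The 1 day values of clone 161141 ranged from -1.45 to 0.77, a spread that its adjusted p does not measure.

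**Figure D4:**
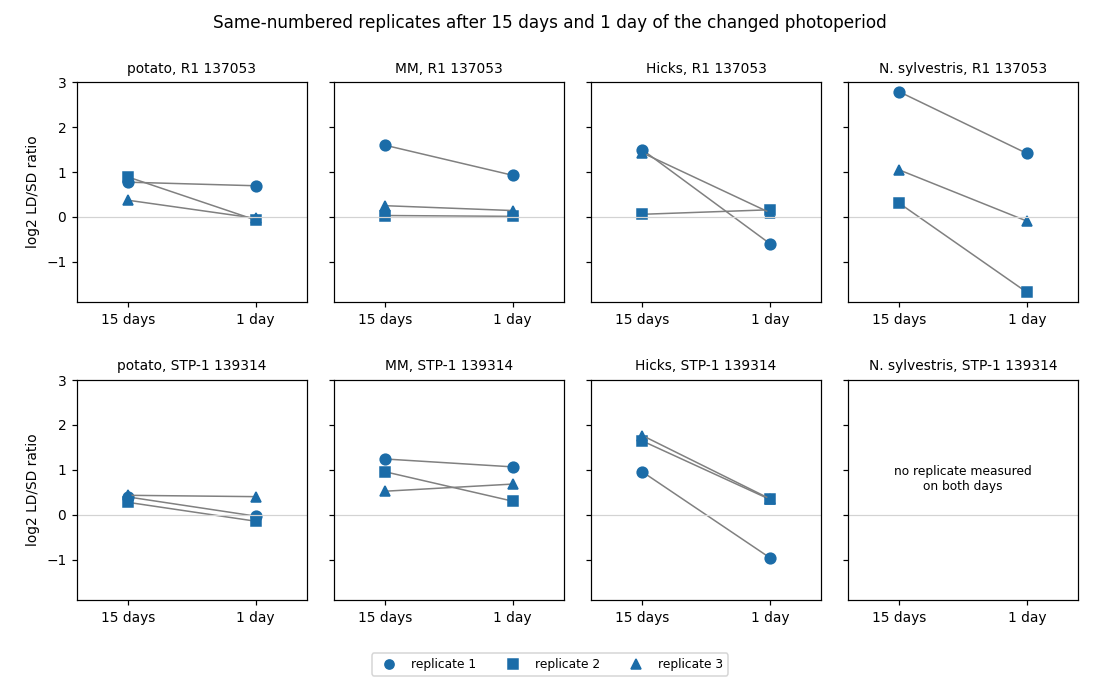
Log2 LD/SD ratio (vertical axis) of R1 clone 137053 and STP-1 clone 139314 after 15 days and 1 day of the changed photoperiod (horizontal axis) in each plant, with lines joining replicates of the same number. In N. sylvestris the R1 lines run parallel, 1.14 to 1.98 apart between the days, and in Hicks all 3 STP-1 values are higher after 15 days than after 1 day; the labels do not say that the numbers pair the plants.

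GBSS clone 134645 had the highest single value of any starch clone in N. sylvestris, with 3.85, 0.92 and 1.85 after 15 days of LD, and 0.67 and 0.86 in the 2 replicates measured after 1 day. The 15 day values ranked between the 96.8 and the 100 percentile of their arrays. On the 15 day arrays alone the mean of 2.21 ± 1.50 passed, with an adjusted p of 0.0869 from limma, beside 3.47% of 3028 clones. AMYA1 clone 153337 had 2.56, -0.29 and 1.56 after 15 days (adjusted p of 0.163 on the same arrays) and no value after 1 day. STP-1 had 2.0 in replicate 1 of 15 days only.

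The direction in N. sylvestris is not settled, because the titles of the samples name a move to SD, against the channel descriptions that were followed here and the methods, both of which have the plants moved to LD. With the titles every ratio of this species has the opposite sign. Replicate 1 of 1 day ran against the others over all clones (r of -0.307 and -0.200), and with its sign turned the 1 day R1 means were -1.06 and -1.0 and the differences of the days 2.44 and 2.06 (adjusted p of 0.0594 for both).

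The responses of the plants were then compared directly. The mean ratio of GBSS clone 134645 after 15 days of the changed photoperiod was 2.21 in N. sylvestris, 1.66 in potato, 1.17 in MM and 1.05 in Hicks. With the direction of the titles N. sylvestris would be last in this order, at -2.21, and it was not tested against potato. The other neighbours did not differ beyond their spread: potato minus MM was 0.49 (95% interval -0.53 to 1.51) and MM minus Hicks 0.12 (-1.35 to 1.58). For STP-1 the order was Hicks at 1.45, MM at 0.91 and potato at 0.37, with potato minus MM at -0.54 (-1.09 to 0.01) and MM minus Hicks at -0.55 (-1.34 to 0.24).

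For AMYA1 clone 153337, 15 day means were 2.23 in MM, 1.27 in N. sylvestris (-1.27 with the direction of the titles) and 0.78 in potato. Potato minus MM was -1.45 (95% interval -2.60 to -0.31), with an unadjusted p of 0.0176 and an adjusted p of 0.158 in limma with at least 2 values per group.

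None of the 4 starch clones passed between potato and MM on either day, where 2.35% of 4250 clones passed in the negative direction after 15 days and 0.541% after 1 day. At an unadjusted p under 0.05 there was 1, STP-1 after 1 day, with a difference of -0.61 (-1.16 to -0.06, adjusted p of 0.323). Without the MM arrays numbered 2, GBSS with -0.84 (adjusted p of 0.0845 in limma) and STP-1 with -0.80 (adjusted p of 0.0443) passed after 1 day. The share of all clones that passed in that fit was not counted. Between MM and Hicks 0 of 4 passed on either day, 0 had an unadjusted p under 0.05, and none of the 3466 clones passed. Between MM and N. sylvestris 0 of the 2 R1 clones passed on either day and 0 had an unadjusted p under 0.05, with intervals as wide as -2.43 to 0.92, where 2.68% of 2239 clones passed in the negative direction after 15 days and 5.05% in the positive direction after 1 day.

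The clones with a gene symbol whose 9 mean ratios were closest to those of each starch gene were listed as a description, by the root mean square difference in log2 units. For GBSS these were IPMK with 0.76, TK, a transketolase, with 0.80, and a clone of GAPDH with 0.82, among 71 named clones. For R1 they were the same GAPDH clone with 0.36, DE2 with 0.37 and PK with 0.43. STP-1 was closest to DHAR2 with 0.35, over the 7 comparisons in which it had a mean, and AMYA1 to a clone of PPO with 0.63, over 6. For scale, the root mean square of the ratios themselves was 1.16 for GBSS, 0.67 for R1, 0.71 for STP-1 and 1.30 for AMYA1. The listed clones were therefore the nearest named ones rather than close matches. Many unnamed clones lay nearer than the listed ones: 93 lay nearer to GBSS than IPMK did, and 36 nearer to R1 than GAPDH.

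Of a list of 87 other symbols of starch and sucrose metabolism, 1 occurred on the array, the sucrose transporter SUT2, and it had too few values for a mean in any comparison. The rest of the pathway is therefore not described here.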

How the data were processed

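The authors normalized the spot intensities of each array by LOWESS and deposited log2 ratios to 3 decimals for 28 arrays and 32448 spots. The submitters' processing notes name limma. No intensities and no columns of comparisons were used. The deposit does not state the direction of the ratios. It was read as Cy3 over Cy5, which gives F3H, STUGE51 and PR1B, none of them a starch gene, the signs they have in the paper, and N. sylvestris ratios were turned by the dyes in its channel descriptions. The array that repeats replicate 1 of potato at 15 days with exchanged dyes (r of 0.784 with it as deposited) was averaged with it, giving 27 replicates. Under a fixed Cy3 over Cy5 reading this array would run against its partner, and it did not, so the dye rule does not hold for every array. Of the genes used for the signs, only STUGE51 had means in N. sylvestris, -0.40 after 15 days and -0.44 after 1 day with the ratios turned.

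The spots of a pair (844 or 1859 spots apart, which holds for all 905 annotated pairs) were averaged. Clones were named only where the probe annotation gives 1 symbol, and no DNA sequence of a clone was used here. The members, the lists and the tests were chosen with earlier results of these data known. Named are every clone of the 4 symbols, every clone of the pathway list, and the 3 closest named clones of each gene.

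Mean ratios and their differences were tested in R 4.3.3 with limma 3.58.1 (lmFit, eBayes), the 15 day and 1 day replicates of a plant sharing 1 spread, among clones with a value in every replicate of the fit. Limits were p of 0.05, a Benjamini-Hochberg adjusted p of 0.1, and 1 on the log2 scale for 2-fold. The fits were tested on simulated data. Replicates are separate biological samples by the methods. The number of arrays limits the precision.

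Deviations from the day's mean over all clones were correlated between same-numbered replicates of both days in potato (r of 0.405, 0.152 and 0.454), MM (0.541, 0.753 and 0.514) and N. sylvestris (0.856, 0.716 and 0.604). The numbers were therefore taken as pairs there, on the data and not on a label, and without a set limit for r. Between same-numbered α-PHYB and 1 day potato replicates r was 0.638, 0.019 and 0.565. The block shared by potato and α-PHYB nevertheless included the 1 day replicates, because that fit held both potato days. Alternatives were each plant's day on its own arrays, the replicate block, at least 2 values per group, centring, scaling, single spots, the dye term, the dye-swap array left out, other limits, the methods' t-test and each replicate left out; turning 1 N. sylvestris array, leaving out the MM arrays numbered 2 and a block shared by potato and α-PHYB were added after seeing the data.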

Additional observations from a re-analysis of the deposited data

How the results depend on the processing

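Counts below are starch clones that passed, given without the shares over all clones. With the methods' t-test and Benjamini-Hochberg adjustment they were 0 in potato at 15 days, 0 in potato at 1 day and 0 in Hicks at 15 days. In MM at 15 days, own arrays gave 2, the replicate block 4, at least 2 values per group 1, centred medians 1, the dye term subtracted 1, the first spot alone 1 and the arrays numbered 2 left out 3; at 1 day the replicate block gave 3 and those arrays left out 3. In Hicks at 15 days, own arrays gave 0, the replicate block 4 and an adjusted p limit of 0.05 gave 1; for the difference of the days the block gave 1 and scaled arrays 1. Hicks numbers were not taken as pairs of the days (r of 0.307, -0.069 and 0.320), a choice made without a set limit for r. In N. sylvestris own arrays gave 1 at 15 days, the block 2 at 15 days, 1 at 1 day and 2 for the difference of the days, which was also 2 with replicate 1 of 1 day turned. Potato minus MM at 1 day gave 2 without the MM arrays numbered 2, and potato minus α-PHYB at 15 days gave 1 from the first spot. In the other fits the replicate block changed no count by over 1.5 times. The causes were not tested.

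With 1 replicate left out the counts were 3 to 6 in potato at 15 days, 0 to 2 in MM at 15 days and 0 to 1 at 1 day, 0 to 3 in Hicks at 15 days, 0 to 1 for its day difference and 0 to 1 pooled, 0 to 2 in N. sylvestris at 15 days, 0 to 5 in α-PHYB, 0 to 1 for potato minus MM at 1 day, and 1 to 4 for potato minus α-PHYB at 15 days.

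Signs that turned were of values that had not passed. With the dye term subtracted they were, in Hicks at 1 day, GBSS -0.14, STP-1 0.10 and R1 161141 -0.072, and in α-PHYB GBSS -0.16 and -0.12 and STP-1 0.14. From the second spot they were, in Hicks at 1 day, GBSS -0.027 and R1 161141 -0.060, and STP-1 -0.023 for the MM day difference. Without the MM arrays numbered 2 the GBSS day difference in MM was -0.17, potato minus MM for R1 137053 at 15 days -0.24 and MM minus N. sylvestris for R1 161141 0.086. From the first spot, potato minus MM for R1 137053 was -0.095 and MM minus Hicks for R1 161141 -0.10; with scaled arrays MM minus Hicks was -0.040 for GBSS and -0.14 for R1 161141. With N. sylvestris ratios as deposited, MM minus N. sylvestris at 15 days was 2.01 and 1.84 for R1.

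With 1 replicate left out, ratios or differences that had not passed ranged over 0 as follows. At 1 day in potato R1 137053 ranged -0.047 to 0.33 and STP-1 -0.087 to 0.19, and the AMYA1 day difference -0.30 to 0.12. The day difference in MM ranged -0.45 to 0.63 for GBSS, -0.22 to 0.56 for R1 137053 and -0.34 to 0.52 for R1 161141. At 1 day in Hicks GBSS ranged -0.54 to 0.49, R1 137053 -0.25 to 0.13, R1 161141 -0.19 to 0.22 and STP-1 -0.31 to 0.35. In N. sylvestris R1 137053 ranged -0.89 to 0.66 at 1 day and R1 161141 -0.093 to 0.64 pooled. In α-PHYB GBSS ranged -0.21 to 0.54 and -0.26 to 0.50 and STP-1 -0.27 to 0.084. Potato minus MM ranged -0.24 to 0.54 for R1 137053 and -0.54 to 0.22 for R1 161141 at 15 days, and -0.84 to 0.25 for GBSS, -0.41 to 0.12 for R1 137053 and -0.76 to 0.10 for R1 161141 at 1 day. MM minus Hicks at 15 days ranged -0.44 to 0.88 for GBSS and -0.47 to 0.42 for R1 161141. MM minus N. sylvestris ranged -0.71 to 0.29 for R1 161141 at 15 days and -0.30 to 1.25 for R1 137053 at 1 day. Potato minus α-PHYB ranged -0.21 to 0.31 for R1 137053, -0.46 to 0.19 for R1 161141 and -0.76 to 0.19 for AMYA1 at 15 days, and -0.042 to 0.34 for STP-1 and -0.70 to 0.24 for AMYA1 at 1 day.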

Other observations

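The 2 arrays that hold replicate 1 of potato after 15 days of SD in opposite dyes gave the same sign to the starch clones measured on both. AMYA1 clone 139548 had a value only on the array with exchanged dyes. GBSS clone 134645 had 1.99 on the first array and 1.57 on the array with exchanged dyes, and GBSS clone 135253 had 1.66 and 1.30. For AMYA1 clone 153337 the values were 0.79 and 0.90, and for the R1 clones 0.73 and 0.82, and 0.69 and 0.50. STP-1 had 0.21 on the first array and 0.59 with exchanged dyes. The difference between dyes for STP-1 is as large as its mean ratio in potato after 15 days, 0.37, and no other comparison has an array with exchanged dyes.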
